A study of Mus musculus with 15 samples.

Results

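Gkn1, Gkn2, Gkn3, Tff1, Tff2, Muc5ac, Muc6, Anxa10 and Psca, 9 genes of the surface (pit) and neck lining of the stomach, were followed through RNA-Seq libraries of mouse pancreas. The set was chosen by the measured difference of Gkn3 and of Gkn1 between groups of these same libraries, so the values of Gkn3 and Gkn1 below are a description and carry no test. All 9 were among the 49585 genes of the HC table and of the KC and KMC table, and 5 of them (Gkn3, Tff2, Muc5ac, Muc6 and Anxa10) were among the 15175 genes of the MC table. Gkn1, Gkn2, Tff1 and Psca had no row there, so they were not analysed in the MC experiment.

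The study asked how HPK1, a kinase of the MAP4K family encoded by Map4k1, and M46, its kinase-dead form, act on the pancreas. All 15 libraries came from C57BL/6 pancreas, and each pooled 3 mice. The transgenes were switched on by a tamoxifen-inducible Cre (Bac-cre, called B in the labels) under an elastase promoter, which directs it to acinar cells. The cerulein-treated sets were MC (M46/B, 3 libraries, age 2 months) with its B control (3 libraries, 2 months), and HC (HPK1/B, 3 libraries, 4 months) with a control labelled WT (2 libraries, 4 months). By these labels, Cre and the HPK1 transgene differ together in the HC set and cannot be told apart there. Cerulein is a secretagogue that causes acute pancreatitis. The remaining set was KMC (M46/Ras/B, 2 libraries, 9 months) against KC (Ras/B, 2 libraries, 15 months), so genotype and age cannot be told apart there. A difference in sex-linked genes, given below, went with both.

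The gastrokines Gkn1 and Gkn2, and trefoil factor 1, are secreted by pit cells onto the gastric surface, where they join the gel formed by the mucin Muc5ac. Muc6 and trefoil factor 2 are products of the mucous neck and of the pyloric and Brunner glands. The pancreas normally makes little of most of these products, but metaplastic ducts and early pancreatic neoplasia are known to switch on a gastric programme of this kind, called pyloric metaplasia, while Tff2 was first isolated from pancreas.

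Library totals ran from 29766575 to 38745907 counts. The 20 acinar genes of the tissue check were above 3 counts in every group, and they took 29.9 to 46.6% of counts in the MC experiment, 4.75 to 7.4% in the HC experiment, 20.6 to 39.7% in KMC and 49.9 to 55.0% in KC. Map4k1 went against its label in the HC set: the libraries labelled HC held 5.05 to 7.92 CPM (counts scaled to a common library size) against 11.5 to 15.4 in their controls. The whole set is therefore called "libraries labelled HC". The leukocyte gene Ptprc was also lower in them, at 35.0 to 62.5 against 72.5 to 116 CPM. Map4k1 was higher in MC (6.79 to 8.31 against 2.34 to 4.14 CPM) and in KMC (5.92 to 11.4 against 0.544 to 1.55), and so was Ptprc. The part of leukocytes in the Map4k1 level was not tested, so these values do not show that a label is wrong. Xist and the Y-linked Ddx3y separated both KMC from both KC libraries (Xist 405 and 306 against 0.68 and 0.348 CPM, Ddx3y 0.0 against 10.7 and 17.3). Sex, as read from these genes, thus cannot be told apart from genotype and age there. The same genes separated 1 library labelled HC (replicate 3) from the other 4 of its table. Without that replicate, the log2 fold changes in the HC set were 2.37 for Gkn1, 2.6 for Gkn2, 0.28 for Gkn3, 2.27 for Tff1, 2.28 for Psca and 1.5 for Anxa10, and the pit genes called fell from 3 to 0. Levels below are CPM on a library size scaled by TMM within each table, so that a level in 1 table was not tested against another. In whole tissue, fewer cells of a type and less RNA per cell cannot be told apart.

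The genes lie partly in clusters. On mouse chromosome 6 (GRCm38), Gkn1 (87345650 to 87350942, minus strand) is 22.4 kb from Gkn2 (87373357 to 87379497, plus strand), which is 3.76 kb from Gkn3 (87383256 to 87388935, minus strand). Tff2 (31141049 to 31144282) and Tff1 (31161395 to 31165277) are 17.1 kb apart on the minus strand of chromosome 17. Muc6 (141633456 to 141655319, minus strand) and Muc5ac (141788972 to 141819231, plus strand) are 134 kb apart on chromosome 7. Anxa10 is on chromosome 8 (62057042 to 62123150, minus strand) and Psca on chromosome 15 (74714839 to 74717069, plus strand). An antisense gene, Gm15318, overlaps Tff1 on the opposite strand. The strand setting of the counting is not given in the sources used here, so reads of these genes cannot be told apart with certainty. The table of RefSeq promoters (GRCm38.p6, 250 bases before to 50 after the start) held 5 of the 9 genes (Gkn1, Gkn2, Gkn3, Muc6 and Anxa10).

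The promoters of the gastrokine cluster are shown because its members behaved unlike each other in these libraries. Capitals mark matches on either strand to GATA letters (TGATAA or AGATAA), an AP-1 motif (TGANTCA) or the TATA box letters TATAAA. The windows are chr6:87350866-87351165 (minus strand) for Gkn1, chr6:87373115-87373414 (plus strand) for Gkn2 and chr6:87388886-87389185 (minus strand) for Gkn3.
Gkn1: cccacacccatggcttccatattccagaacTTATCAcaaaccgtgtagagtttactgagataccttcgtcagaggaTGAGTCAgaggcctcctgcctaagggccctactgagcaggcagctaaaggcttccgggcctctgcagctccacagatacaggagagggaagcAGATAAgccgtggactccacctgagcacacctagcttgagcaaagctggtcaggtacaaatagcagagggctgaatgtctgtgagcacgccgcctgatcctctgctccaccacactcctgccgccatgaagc
Gkn2: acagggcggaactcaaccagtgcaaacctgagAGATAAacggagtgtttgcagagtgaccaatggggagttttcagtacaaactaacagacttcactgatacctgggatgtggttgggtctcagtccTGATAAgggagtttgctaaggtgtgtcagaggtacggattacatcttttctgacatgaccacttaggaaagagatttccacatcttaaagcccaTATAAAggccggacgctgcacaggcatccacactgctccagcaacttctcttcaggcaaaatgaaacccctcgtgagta
Gkn3: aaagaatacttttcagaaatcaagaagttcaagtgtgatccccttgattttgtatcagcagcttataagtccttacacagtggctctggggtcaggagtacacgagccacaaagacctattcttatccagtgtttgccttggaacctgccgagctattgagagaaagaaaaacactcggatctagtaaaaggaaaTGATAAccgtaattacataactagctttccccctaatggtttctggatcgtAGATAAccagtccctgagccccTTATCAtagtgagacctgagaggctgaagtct
All 3 windows held GATA letters, with 2 matches in Gkn1, 2 in Gkn2 and 3 in Gkn3, and so did Muc6 with 2, where 18.6% of 32851 promoters of this length held at least 1. An AP-1 match was found in Gkn1 (1) and Anxa10 (2), against 7.81% of promoters, and the letters TATAAA in Gkn2 and Anxa10, against 13.6%. Other forms of the TATA box were not searched, so the remaining windows may hold one. A forkhead motif (TGTTTAC or TATTTAC) was found in Anxa10 alone of these 5, against 6.54% of promoters, whereas SOX letters (CATTGT, 12.6% of promoters) and a STAT motif (TTCNNNGAA, 8.3%) were in none of the 5 windows.

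In the libraries labelled HC, the levels of 8 of the 9 genes lay above both controls, by wide gaps for Gkn1 and Gkn2 and a narrow one for Gkn3, while Muc6 overlapped, and edgeR called none of the 9. Of all genes tested, 17.5% lay above both controls in this way and 0.565% were called. Gkn1, a secreted pit-cell protein, had 97779, 73509 and 91064 counts in replicates 1 to 3 against 23711 and 12566 in the controls. This was 2700 ± 318 CPM (SD, n = 3) against 501 ± 253 (n = 2), a log2 fold change of 2.43 (SE 0.36), with no overlap between the groups. Gkn2, its neighbour and also a secreted gastrokine, had 60244, 46056 and 70043 counts against 13654 and 5494. The log2 fold change of Gkn2 was 2.77 (SE 0.48, edgeR adjusted p = 0.0642). The Gkn1 to Gkn2 count ratio within a library lay between 1.3 and 2.29 in all 5 libraries, so that both genes varied in near proportion from library to library.

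Gkn3, the gastrokine on the far side of Gkn2, behaved differently: its counts were 40680, 34121 and 35070 in the libraries labelled HC against 34682 and 33703. Its level was 1130 ± 61.2 CPM (SD, n = 3) against 928 ± 93.3 (n = 2), a log2 fold change of 0.29 (SE 0.16). Gkn3 was thus the most abundant gastrokine in both controls, whereas Gkn1 had 2.15 to 2.6 counts per Gkn3 count in the libraries labelled HC and 0.684 and 0.373 in the controls. Per kilobase of exon the order was the same, with Gkn1 to Gkn3 ratios of 1.48 to 1.78 against 0.468 and 0.255.

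Tff1, the trefoil peptide of pit cells, had 1932, 2209 and 2142 counts against 680 and 263, a log2 fold change of 2.31 (SE 0.43, edgeR adjusted p = 0.0739). Its antisense partner Gm15318 had 337, 545 and 424 counts against 180 and 72. Psca, a surface-anchored protein of the gastric epithelium that also marks pancreatic tumours, had 832, 1208 and 1435 counts against 319 and 147 (log2 2.49, SE 0.44, edgeR adjusted p = 0.0683). Both genes had every library labelled HC above both controls.

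Muc5ac, the gel-forming pit mucin, had 30529, 15144 and 30041 counts against 13548 and 4402 (log2 1.64, SE 0.56, edgeR adjusted p = 0.242). Replicate 2 of the libraries labelled HC lay close to control 1, at 481 and 388 CPM. Muc6, the gland mucin, had 2142, 6115 and 8775 counts against 6331 and 8389, and its groups overlapped (log2 -0.15, SE 0.53, edgeR adjusted p = 0.928). The Muc5ac to Muc6 count ratio was 14.3, 2.48 and 3.42 in the libraries labelled HC against 2.14 and 0.525. Tff2, the trefoil peptide of the neck and glands, had 85466, 117026 and 60127 counts against 56271 and 37999 (log2 1.07, SE 0.36, edgeR adjusted p = 0.237), with the lowest library labelled HC just above the higher control, at 1910 and 1610 CPM. Anxa10, a calcium-binding annexin that is a marker of gastric-type epithelium, had 11471, 14307 and 11822 counts against 5847 and 4301 (log2 1.49, SE 0.23, edgeR adjusted p = 0.0554).

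In sum over the 9 genes, the libraries labelled HC held 9770 to 9840 CPM and their controls 2740 to 4440. None of the 9 was called by edgeR, meaning an adjusted p of 0.05 or less with a log2 fold change of 1 or more in either direction, where 0.565% of all 18407 genes tested were called and 2919 had an unadjusted p under 0.05. DESeq2 called 6 of the 9 (Gkn1, Gkn2, Tff1, Tff2, Anxa10 and Psca), against 2.54% of all genes. The groups of 8 of the 9 did not overlap, all higher, against 17.5% of all genes. The median log2 fold change was 1.64 over the 9 genes and 0.0 over all genes. Since the choice of genes used this comparison, nothing is read from these counts. The size of the folds depended on the controls. Without control 1 the log2 fold changes were 3.07 for Gkn1, 3.69 for Gkn2, 3.27 for Tff1, 3.26 for Psca, 2.79 for Muc5ac and 1.48 for Tff2, and without control 2 they were 1.99, 2.22, 1.74, 1.98, 1.0 and 0.75 in the same order. Levels of other cells moved with the genes: the 14 leukocyte genes summed to 878 to 1520 CPM against 1490 to 2750, with Cd79a, a B-cell gene, called lower (log2 -1.31, SE 0.19, edgeR adjusted p = 0.0499). The 14 ductal genes summed to 9530 to 11800 against 7630 to 8010 CPM, with Tspan8 called higher (log2 1.05, SE 0.14, edgeR adjusted p = 0.0449). Their part in the result was not tested.

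**Figure D1:**
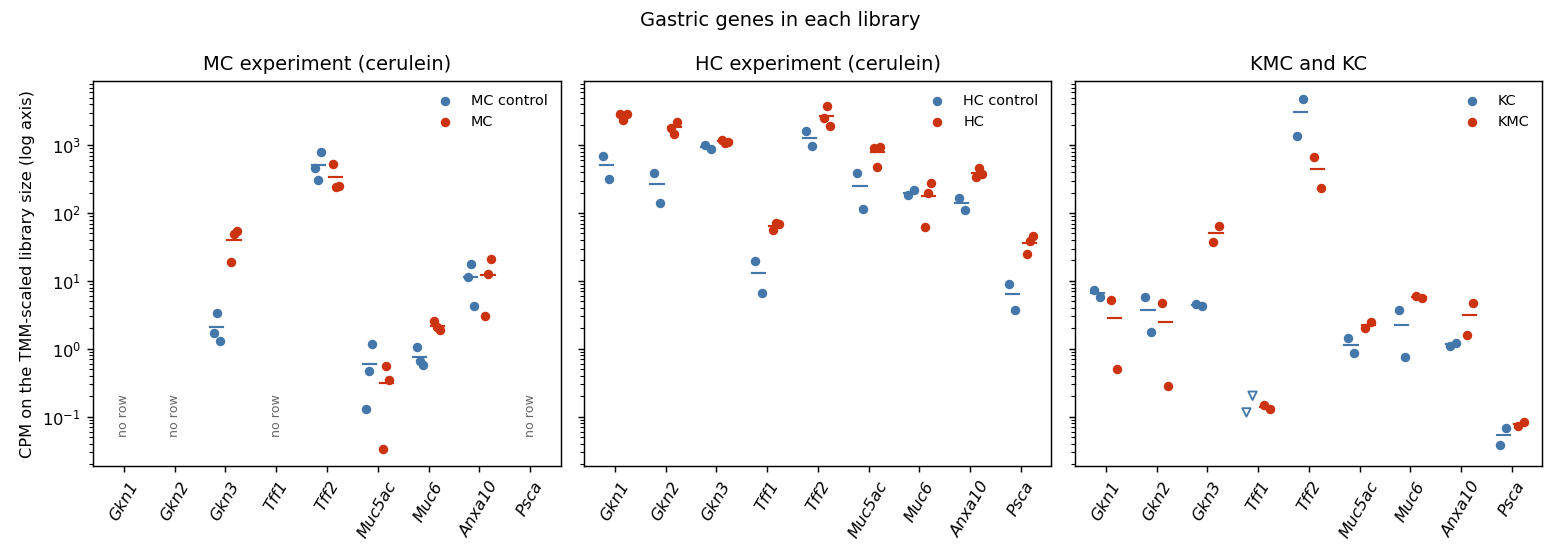
Level of each gene in each library, as CPM on the TMM-scaled library size (log axis), in the MC experiment (left), the libraries labelled HC with their controls (middle) and KMC with KC (right). Points are libraries, bars are group means, open triangles stand at the level of 3 counts for libraries with 0 counts, and "no row" marks a gene outside the MC table. In the middle panel 8 of the 9 genes separate, with a wide gap for Gkn1 and Gkn2 and a narrow one for Gkn3 (1080 to 1200 against 862 to 994 CPM). Of all genes tested there, 17.5% separate in the same direction. In the outer panels Gkn3 has a wide gap.

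Further genes of the gastric lining were taken from lists that were also drawn up with earlier results known. Of 12 other pit genes, 11 passed the filter on low counts in the HC table, 3 were called, all higher, and the median log2 fold change was 1.29 against 0.0 over all genes, where 0.467% of all genes were called higher. Sult1c2, a sulfotransferase, had 137 ± 28.9 CPM (SD, n = 3) against 42.4 ± 3.27 (n = 2), a log2 fold change of 1.70 (SE 0.20, edgeR adjusted p = 0.0423). Lgals4, a galectin of digestive epithelia, rose by 1.34 (SE 0.17, edgeR adjusted p = 0.0449) and Cldn18, the tight-junction claudin of the stomach, by 1.13 (SE 0.14, edgeR adjusted p = 0.0428), both on the log2 scale. Ctse, the aspartic protease of pit cells and the most abundant of the list, had 2230 ± 286 CPM against 976 ± 15.4 (log2 1.19, SE 0.19, edgeR adjusted p = 0.0595). The other pit genes summed to 3510 to 4430 CPM in the libraries labelled HC and to 1590 to 1650 in the controls.

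Regulators and the mucin assembly line showed single calls, where 0.565% of all genes were called. Of 14 gastric transcription factors, 13 were tested and 1 was called: Klf4, a zinc-finger factor of surface epithelia, rose by 1.16 on the log2 scale (SE 0.16, edgeR adjusted p = 0.0449). Sox2 had at most 3 counts in every library of the HC table. Of 18 genes of mucin glycosylation and assembly, 17 were tested and 1 was called, Galnt6, an enzyme that starts O-glycan chains (log2 1.04, SE 0.15, edgeR adjusted p = 0.0499). Its relative Galnt4 passed the p threshold and not the fold threshold (log2 0.82, SE 0.12, edgeR adjusted p = 0.0476). None of 9 other mucins tested was called, with a median of 1.15. Muc13 (log2 1.47, SE 0.23, edgeR adjusted p = 0.0562) and Muc1 (log2 1.11, SE 0.18, edgeR adjusted p = 0.0576), both membrane mucins, were the nearest. None of the 14 pyloric metaplasia genes outside the 9 was called, with a median of 0.33. Mal2, a transcytosis protein of apical membranes, had the smallest p among them (log2 1.08, SE 0.19, edgeR adjusted p = 0.0691).

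Several defining genes of the deeper gastric glands and of other gut lining were at or near 0, while others of the same lists were expressed. Of the 15 parietal and chief cell genes, 0 of 10 tested were called. Atp4b, the beta subunit of the proton pump, Chia1 and Kcne2 had at most 3 counts in every library of the HC table, and Mfsd4a had the smallest p (log2 0.59, SE 0.19, edgeR adjusted p = 0.227). Others of this list were above that level. Pgc had 254 to 2769 counts in the libraries labelled HC against 657 to 666 in the controls. Ghrl had 362 to 601 against 260 to 513 counts, and Atp4a 110 to 124 against 115 to 131. The list summed to 255 to 395 CPM against 214 to 257. Squamous forestomach genes summed to 36.8 to 54.9 CPM against 15.8 to 27.5, with Krt5, Krt6a, Sprr1b and Sprr3 at 3 counts or fewer. Smooth muscle genes of the stomach wall summed to 159 to 195 CPM against 168 to 198. Intestinal genes summed to 565 to 754 CPM against 424 to 479, with Sis, Apoa4, Cdx1 and Cdx2 at 3 counts or fewer. Of the 7 intestinal genes tested, 0 were called and 4 had groups that did not overlap, all higher, and their median log2 fold change of 1.16 was close to the 1.29 of the other pit genes. Of all genes tested, 0.565% were called and 17.5% were higher without overlap. Fcgbp, a mucus protein, had the smallest p (log2 1.75, SE 0.27, edgeR adjusted p = 0.0546). The calls rest on few libraries: leaving out any of replicates 2 and 3 of the libraries labelled HC or either control left 0 to 3 genes called in the whole table instead of 104, and over these settings and the others the called pit genes numbered 0 to 8. The fold changes of Sult1c2 (1.58 to 1.86), Lgals4 (1.21 to 1.41), Cldn18 (1.01 to 1.25) and Klf4 (1.07 to 1.28) stayed above 1 on the log2 scale in all 13 alternatives, whereas Galnt6 (0.815 to 1.29) and Tspan8 (0.954 to 1.15) fell below 1 in part of them.

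**Figure D2:**
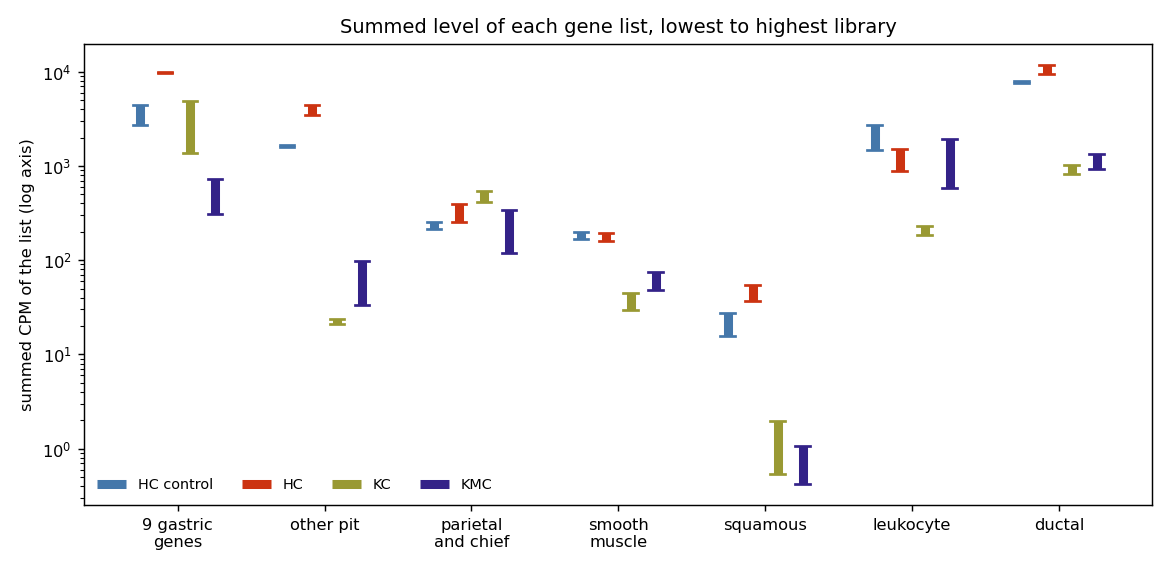
Summed CPM (log axis) of each gene list, drawn from the lowest to the highest library of a group, for the libraries labelled HC, their controls, KC and KMC. The 9 gastric genes sum to 9770 to 9840 CPM in the libraries labelled HC against 2740 to 4440, and the sum is 1370 to 4850 in KC and 311 to 726 in KMC. In KMC replicate 2, Tff2 makes up 233 and Gkn3 64.1 of the 311 CPM.

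In the MC experiment, Gkn3 had the largest difference of the 5 genes with a row. Its counts were 556, 2085 and 2182 in the 3 MC libraries against 52, 113 and 29 in their controls. This was 40.5 ± 19.0 CPM (SD, n = 3) against 2.13 ± 1.09 (n = 3), a log2 fold change of 4.22 (SE 0.51), and every MC library lay at least at 18.8 CPM while no control was above 3.36. MC replicate 1 was the lowest of its group. In this experiment the level of Gkn3 per kilobase came next after Tff2 in MC, and after Tff2 and Anxa10 in the control.

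Muc6 had 75, 90 and 76 counts in MC against 32, 22 and 13, which also did not overlap (log2 1.49, SE 0.32, edgeR adjusted p = 0.113). These counts are low, at 2.18 ± 0.334 CPM (SD, n = 3) against 0.765 ± 0.255 (n = 3). Muc5ac had 1, 24 and 14 counts against 4, 16 and 26 (log2 -0.80, SE 0.90, edgeR adjusted p = 0.669), so the pit mucin was near the level of 3 counts in part of each group. Anxa10 had 91, 543 and 840 counts against 350, 606 and 94, with groups that spanned the same range (log2 0.11, SE 0.69, edgeR adjusted p = 0.945). Tff2 had 15737, 10215 and 9946 counts against 13912, 10158 and 17506 (log2 -0.61, SE 0.43, edgeR adjusted p = 0.5).

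None of the 5 genes with a row was called by edgeR, and the share of all 13902 genes called was 0.0%, with 2037 at an unadjusted p under 0.05. DESeq2 called Gkn3 and Muc6, against 3.26% of all genes. There was no overlap between groups for Gkn3 and Muc6, 2 of the 5 and both higher, against 10.9% of all genes, and the median log2 fold change was 0.11 against -0.02. The set was chosen in part by Gkn3, so nothing is read from these counts. No gene of the other gastric lists was called by edgeR. The smallest p belonged to Muc1 among the other mucins (edgeR adjusted p = 0.407) and in the remaining lists to Ctse (log2 1.84, SE 0.52, edgeR adjusted p = 0.208), Pigr, the receptor that carries IgA across epithelia (log2 1.49, SE 0.19, edgeR adjusted p = 0.0781), Agr2, a disulfide isomerase of mucin assembly (log2 2.15, SE 0.53, edgeR adjusted p = 0.156), Barx1, a homeobox factor of the stomach (log2 0.88, SE 0.35, edgeR adjusted p = 0.314), and Cblif, gastric intrinsic factor (log2 4.00, SE 0.89, edgeR adjusted p = 0.125). Leukocyte genes moved with the group: Ptprc was 38.3 to 52.4 CPM in MC against 8.4 to 19.8, while the summed list overlapped (657 to 969 against 358 to 1030 CPM). All 12 leukocyte genes tested had a log2 fold change above 0 (median 1.51), and 6 were higher without overlap. Adipocyte genes summed to 61.8 to 191 CPM against 32.3 to 44.7. All 7 of them were higher without overlap, with a median log2 fold change of 3.67. Their part in the result was not tested.

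The log2 fold change of MC against its control less that of the libraries labelled HC against theirs was 3.93 for Gkn3 (SE 0.56), which is a description. For the other 4 genes in both tables the difference was -1.70 for Tff2 (SE 0.65, edgeR adjusted p = 0.172), -2.34 for Muc5ac (SE 1.11, edgeR adjusted p = 0.262), 1.62 for Muc6 (SE 0.71, edgeR adjusted p = 0.223) and -1.39 for Anxa10 (SE 0.86, edgeR adjusted p = 0.384). Across all 14884 genes in both tables, 2.18% were called for this difference. Age, control genotype and table go with the experiment and cannot be told apart from the transgene, and Map4k1 went against the label in the libraries labelled HC.

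**Figure D3:**
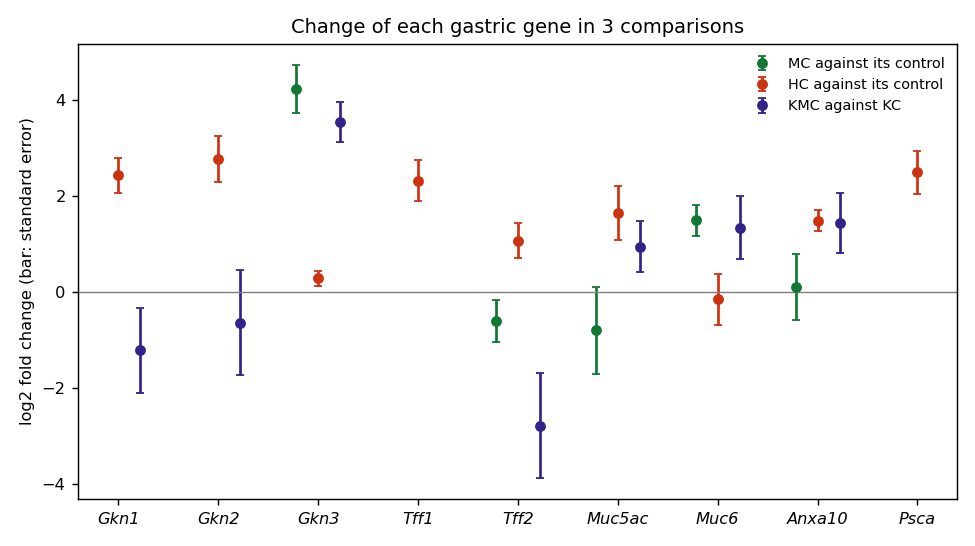
Log2 fold change of each gene in the 3 comparisons (colours), with the standard error as a bar. Gkn3 stands at 4.22 in MC and 3.53 in KMC but at 0.29 in the libraries labelled HC, whereas Gkn1 and Gkn2 stand at 2.43 and 2.77 there and at -1.21 and -0.64 in KMC.

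In KMC against KC, Gkn3 again stood apart from its neighbours. It had 1521 and 5387 counts in KMC against 62 and 117 in KC, or 37.3 and 64.1 CPM against 4.22 and 4.52, a log2 fold change of 3.53 (SE 0.41). On library size alone it was 46.4 and 139 CPM against 2.05 and 3.45, and its log2 fold change lay between 3.11 and 5.07 in all 12 alternatives. Gkn1 had 215 and 43 counts against 86 and 191, and Gkn2 192 and 24 against 26 and 150. The fitted change was -1.21 (SE 0.89) for Gkn1, and -0.64 (SE 1.1, edgeR adjusted p = 0.74) for Gkn2. On library size alone the change was -0.15 for Gkn1 and turned to 0.29 for Gkn2. Single libraries moved both: the change was -3.70 for Gkn1 and -3.75 for Gkn2 without KMC replicate 1, and -0.31 and 0.31 without KMC replicate 2. Gkn3 thus had 7.07 and 125 counts per Gkn1 count in KMC and 0.721 and 0.613 in KC, a ratio within each library that no scaling can move.

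Tff1 and Psca were at or near 0: Tff1 had 6 and 11 counts in KMC and 0 in both KC libraries, and Psca had 3 and 7 counts in KMC and 1 in each KC library. Neither passed the filter on low counts. Muc5ac had 82 and 210 counts against 13 and 37 (log2 0.95, SE 0.53, edgeR adjusted p = 0.284). Muc6 had 248 and 474 counts against 11 and 97 (log2 1.34, SE 0.66, edgeR adjusted p = 0.24). Anxa10 had 66 and 397 counts against 18 and 29 (log2 1.44, SE 0.63, edgeR adjusted p = 0.199). The log2 fold change of Muc6 was 0.63 without KC 1 and 2.96 without KC 2, and that of Anxa10 was 2.00 without KMC 1 and 0.49 without KMC 2. In each of these mucin and annexin pairs the KMC libraries were above both KC libraries on either scaling.

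Tff2 went the other way. It had 27221 and 19574 counts in KMC against 71097 and 34680 in KC (log2 -2.78, SE 1.1, edgeR adjusted p = 0.173), or 831 and 505 CPM against 2350 and 1020 on library size alone. Its log2 fold change lay between -3.73 (without KMC 1) and -1.58 (without KC 1) when 1 library was left out. In these 4 libraries its order was that of the acinar share: 505 CPM at 20.6% acinar counts, 831 at 39.7%, 1020 at 49.9% and 2350 at 55.0%. In the MC experiment the lowest library-size CPM values of Tff2, 295 and 299, were also in the libraries with the lowest acinar shares, 29.9 and 30.2%, and the highest, 555, in the library with the highest, 46.6%, but Tff2 was 502 at 38.6% (MC 1) and 407 at 42.1% (control 1). In the HC table Tff2 reached 3680 CPM at acinar shares of only 4.75 to 7.4%, and it was higher in replicate 3 of the libraries labelled HC (1890 at 4.75%) than in control 1 (1600.0 at 7.33%). The part of the acinar share in the result was not tested.

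None of the 7 genes tested was called by edgeR in this comparison, where 0.0191% of all 15733 genes were called and 4027 had an unadjusted p under 0.05. In simulated counts this fit recovered 43.5% of genes changed by 2 on the log2 scale. The same check recovered 99% in the HC comparison and 100% in the MC comparison. A changed gene can thus go uncalled in KMC against KC. Recovery was not tested for the listed genes themselves. DESeq2 called Gkn3 and Tff2, against 13.7% of all genes. Of the 7 tested, groups did not overlap for 4 that were higher and 2 that were lower, against 34.4% and 30.9% of all genes tested. On library size alone Gkn1 overlapped. The median log2 fold change was 0.95 over the 7 genes and 0.03 over all genes. As the set was chosen in part by Gkn3, nothing is read from these counts. With the scaling of library size alone, the median of all genes moved to 1.47. Of the other lists, 0 genes were called. The smallest p of each belonged to Ctse (log2 3.80, SE 0.81, edgeR adjusted p = 0.0796), Lcn2, the siderophore-binding lipocalin (log2 3.06, SE 0.54, edgeR adjusted p = 0.0796), Fut2, a fucosyltransferase (log2 2.71, SE 0.56, edgeR adjusted p = 0.0796), Cblif (log2 3.16, SE 0.80, edgeR adjusted p = 0.0984), Muc20, a membrane mucin (log2 2.33, SE 0.62, edgeR adjusted p = 0.104), and Spdef, an ETS factor of mucous cells (log2 -1.57, SE 0.43, edgeR adjusted p = 0.105). Leukocyte genes summed to 577 to 1920 CPM in KMC against 187 to 231, with Ptprc at 33.4 to 58.6 against 3.13 to 10.1 CPM, and their part in the result was not tested.

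**Figure D4:**
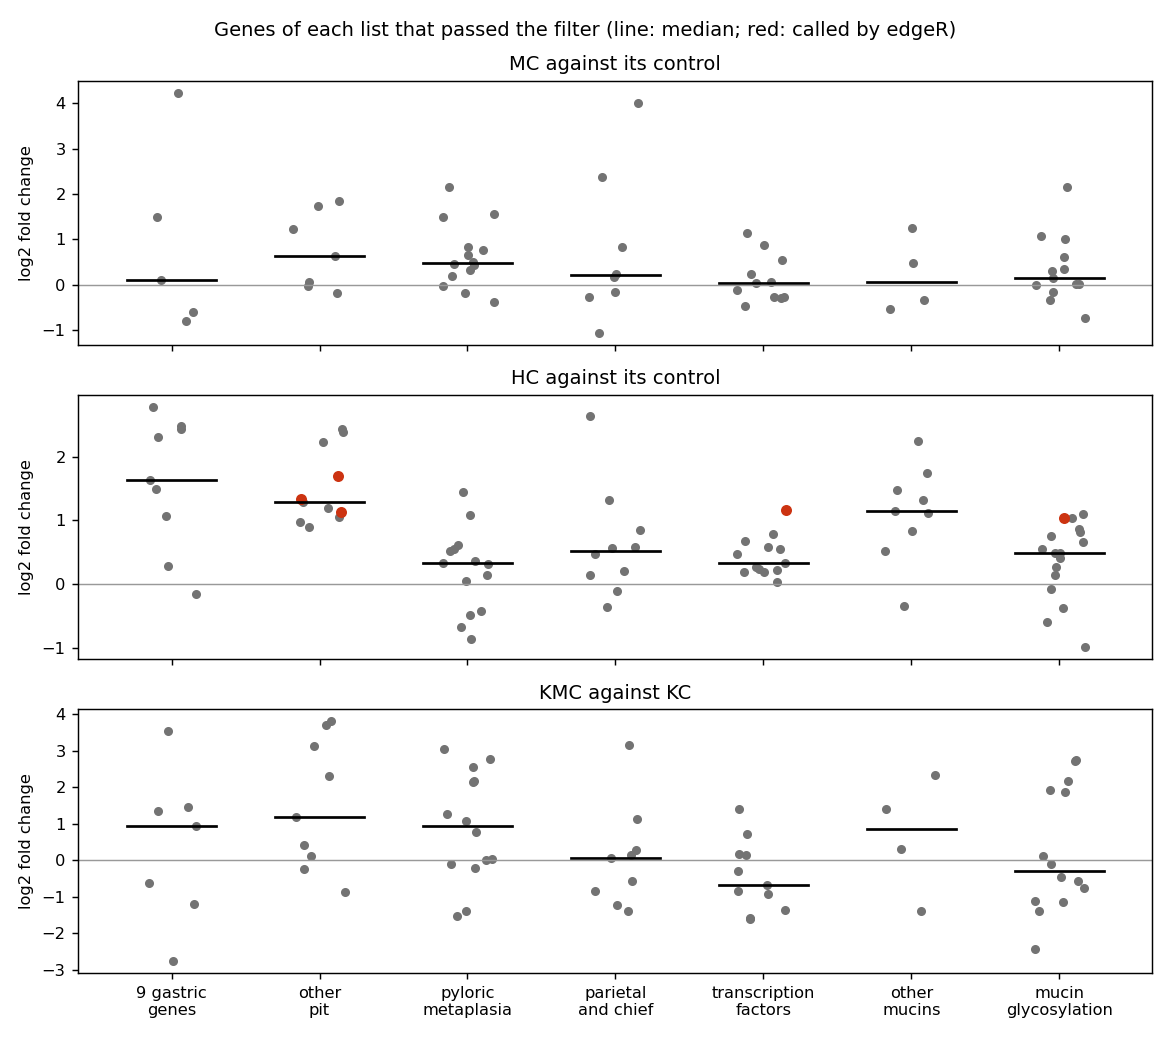
Log2 fold change of every gene that passed the filter in each list (columns) and comparison (rows), with the list's median as a line and called genes in red. Called genes appear only in the HC comparison: Sult1c2, Lgals4 and Cldn18 among the other pit genes, Klf4 among the transcription factors and Galnt6 in mucin glycosylation.

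Per kilobase of exon, Tff2 was the highest of the listed genes within each of the 6 groups. It was at 581 ± 286 CPM per kb in MC (SD, n = 3) and 5290 ± 4230 in KC (n = 2). These levels were scaled in separate tables and are not compared. In the libraries labelled HC it was followed by Gkn2 (2310 ± 483), Gkn1 (2160 ± 255) and Gkn3 (1320 ± 71.5 CPM per kb, SD, n = 3), of which Gkn2 and Gkn1 differed by less than their SD. In their controls the order after Tff2 was Gkn3 (1080 ± 109), Gkn1 (400.0 ± 203) and Gkn2 (338 ± 225, n = 2). In KMC, Gkn3 (59.3 ± 22.1) was second at 772 CPM per kb for Tff2, and every other gene was at 3.17 or below. In KC, Gkn1 (5.29), Gkn3 (5.11) and Gkn2 (4.8) lay within their SDs of each other.

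The genes most like Gkn3 over the 9 libraries of the HC, KMC and KC groups and the HC controls, by Pearson correlation of log2(CPM + 0.5) among 18256 genes, were Chn2, Kcnn4, Abr, Gm17396 and Bcl11b. Those most like Gkn1 were Epn3, Glp1r, Tjp3, Clca1 and Slc44a4. The 9 libraries fall into separate sets by table, so the likeness includes the difference between tables, and Spearman correlation gave 5 other genes for each.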

How the data were processed

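The authors aligned reads to GRCm38 (mm10) with STAR, and deposited raw counts per GENCODE gene as 3 tables without normalization. The submitters' processing notes also name bcl2fastq 2.17.14, STAR 2.6.1a, HTSeq 0.6.1 and DESeq2. The way in which 15175 genes were selected for the MC table, and the strand setting of the counting, are not given in the sources used here. A deposited table of the authors' own DESeq2 comparison of MC with control (fold changes and p-values) was not used.

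Samples were grouped by their labels. Gene IDs were matched to GENCODE M21 names (15164 of 15175 and 49326 of 49585). Within each table, edgeR 4.0.16 (R 4.3.3; filterByExpr, TMM, quasi-likelihood test) was fitted to all genes with Benjamini-Hochberg adjustment, and DESeq2 1.42.0 was an alternative. A called gene had an adjusted p of 0.05 or less and a log2 fold change of 1 or more in either direction. The difference between the cerulein experiments was a contrast over genes in both tables. The scripts were tested on simulated data. Totals of 29766575 to 38745907 counts put the floor of 3 counts at 0.0357 to 0.204 CPM. Libraries of a group differed by more than sampling noise (chi-square per gene 43.8 to 516), and p-values measure only the spread between pools of 3 mice. Promoters came from RefSeq (GRCm38.p6).

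All 9 genes, and at most 4 genes of each other list, are named: those called, then those with the smallest p in a comparison, then the most abundant. Genes named for a level at or below 3 counts, and Gm15318, Pgc, Ghrl and Atp4a, were added after their values were seen. The members and lists were chosen with earlier results of these data known. Alternatives were another test or fit, other library scalings, no filter, a replicate block, a shared fit and leaving out each library.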

Additional observations from a re-analysis of the deposited data

Results flagged for a closer look

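Gkn3 was marked because its change differed between the cerulein experiments: the log2 fold change of MC against its control less that of the libraries labelled HC against theirs was 3.93 (SE 0.56), from 4.22 and 0.29. The gene was chosen for its change in MC, and Map4k1 went against the label in the libraries labelled HC, so the value is a description and carries no test. The difference lay between 3.68 and 4.43 in all 13 alternatives.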

How the results depend on the processing

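The number of genes called over each whole table depended on the tool, the scaling and single libraries, and the cause was not tested. For MC against its control the count was 0, and it was 453 with DESeq2, 1 on library size alone and 0 to 718 when 1 library was left out (718 without control 2, 171 without MC 1). For the libraries labelled HC it was 104, and it was 467 with DESeq2, 50 on library size without acinar genes, 395 with no filter, 1 with the HC and KC tables in one fit and 0 to 379 when 1 library was left out. For KMC against KC it was 3 (1 higher, 2 lower), and it was 2159 with DESeq2, 4715 on library size alone (4695 higher, 20 lower), 3151 on library size without acinar genes (3121 higher, 30 lower), 9 with no filter, 3230 with both tables in one fit and 0 to 2288 when 1 library was left out. For the difference between the cerulein experiments it was 325 (264 higher), and it was 101 on library size alone (94 higher) and 0 to 1584 when 1 library was left out. On library size alone the median of all genes moved to 0.29 in MC. Replicate numbers did not pair the samples, since same-numbered deviations correlated at 0.076, 0.313 and -0.347 in MC, and other groups have only 2 pairs (0.214 and 0.202, and 0.101 for both). The replicate block gave 0 calls in MC, 339 for the libraries labelled HC, among them Gkn2, Tff1, Muc5ac and Anxa10, and 2469 in KMC, among them Tff2. Gkn1 and Gkn3, which carry no test here, are left out of these names. Of the 9 genes, the sign turned for Muc5ac in MC (0.1 without control 3), Anxa10 in MC (-0.1 with the block, -0.26 without control 3, -0.51 without MC 3), Muc6 in the libraries labelled HC (0.25 without HC 1) and Gkn2 in KMC (0.29 on library size alone, 0.31 without KMC 2, 0.49 without KC 2). When 1 library was left out, these ranged from -1.5 to 0.1, -0.51 to 0.62, -0.64 to 0.25 and -3.75 to 0.49. Of the named genes of the other lists, Muc1 in MC reached 0.0 on library size alone, and no other turned. At these depths Psca in KC, at 1 count a library, and Tff1, at 0, allow no fold change.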
